A study of Mus musculus with 8 samples.

Results

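The miR-26 family of the mouse consists of the guide strands miR-26a-5p and miR-26b-5p (mmu-miR-26a-5p and mmu-miR-26b-5p on the array), and its members were taken as the array entries bearing these 2 names, out of 1881 mouse miRNAs on the array. Each guide had 2 probes, so 4 of 4415 mouse probes measured the family. The family was followed in 8 kidney samples, 4 from mice with acute kidney injury by ischemia-reperfusion (IRI) and 4 from sham-operated mice. All were male C57BL/6 mice aged 9 weeks. IRI mice lost the right kidney and had the left kidney clamped and reperfused, whereas sham mice had a midline incision only, so nephrectomy separates the groups in addition to ischemia. The clamp was left for 25 or 45 min, and the tissue was collected after 12 or 24 h. Which IRI sample had which clamp time and harvest time is not given in the labels, so the 4 samples were treated as 1 group. The labels do not say that each sample came from a separate animal, and p-values therefore measure only the spread between these samples, which may be technical.

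A miRNA guide strand is loaded into an Argonaute protein and represses mRNAs that pair with its seed, the short stretch near its 5′ end. The miR-26 guides are made from introns of the Ctdsp genes, which encode small phosphatases acting on RNA polymerase II and on the retinoblastoma protein. miR-26 is abundant in most adult tissues, is known as a brake on proliferation, and represses among others the histone methyltransferase Ezh2.

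The mature sequences show why the guides count as 1 family and where a probe can tell them apart. They are written 5′ to 3′ with the seed (bases 2 to 8) in capitals, as RefSeq gives them for GRCm38.p6.
miR-26a-5p: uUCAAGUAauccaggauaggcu
miR-26b-5p: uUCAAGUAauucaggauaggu
The seed UCAAGUA was shared by these 2 names and by no other of 1679 mature mouse names in the RefSeq table. Counted from the 5′ end, the guides had the same base at 19 of 21 positions. The differences from miR-26a-5p to miR-26b-5p were C11U and C21U, and miR-26a-5p, at 22 bases, was 1 base longer than miR-26b-5p, at 21.

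The guides come from 3 hairpins, shown because one guide has 2 genes and the other has 1. Both arms of each hairpin are in capitals, the guide first.
Mir26a-1: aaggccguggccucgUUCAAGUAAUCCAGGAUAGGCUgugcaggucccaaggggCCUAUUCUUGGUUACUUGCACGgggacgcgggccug
Mir26a-2: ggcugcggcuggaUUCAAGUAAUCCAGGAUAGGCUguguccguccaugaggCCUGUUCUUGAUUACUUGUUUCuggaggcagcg
Mir26b: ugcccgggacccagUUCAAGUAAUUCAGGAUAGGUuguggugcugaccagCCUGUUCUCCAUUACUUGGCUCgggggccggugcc
In GRCm38.p6, Mir26a-1 lies at chr9:119031796-119031885 on the plus strand, inside the span of Ctdspl. Mir26a-2 lies at chr10:126995530-126995613 on the plus strand, inside Ctdsp2, and Mir26b at chr1:74394310-74394394 on the plus strand, inside Ctdsp1. The table gives gene spans without exons, so the intronic position is stated as background. Because Mir26a-1 and Mir26a-2 give an identical guide, the miR-26a-5p signal is the sum of both genes.

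The probes are DNA strands complementary to the guide from its 3′ end inward, and those for miR-26b-5p cover nearly all of it. They are shown because the capitals mark the bases that pair with a position at which the other guide differs or has no base.
miR-26a-5p probe of 15 bases: AGcctatcctgGatt
miR-26a-5p probe of 16 bases: AGcctatcctgGatta
miR-26b-5p probe of 19 bases: AcctatcctgAattacttg
miR-26b-5p probe of 20 bases: AcctatcctgAattacttga
The miR-26a-5p probes pair with positions 8 to 22 and 7 to 22 of their guide, and 3 of these positions are not matched in miR-26b-5p. The miR-26b-5p probes pair with positions 3 to 21 and 2 to 21, and 2 of these positions differ in miR-26a-5p. How much each probe binds the other guide cannot be read from these arrays.

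Both guides were lower in IRI than in sham kidney relative to the 75th percentile of their array, by 29.3% for miR-26a-5p and 30.6% for miR-26b-5p. Signal here is the background-subtracted intensity summed over the probes of a miRNA. Arrays were brought to a common 75th percentile, taken over 317 miRNAs that every array detected. Of 379 miRNAs tested in the same fit, 36.7% were called lower (139) and 12.1% higher (46) at an adjusted p below 0.05, so a call of lower is common on these arrays.

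The scaled signal of miR-26a-5p in the sham kidneys was 7339 in replicate 1, 6684 in replicate 2, 7226 in replicate 3 and 6900 in replicate 6. In the IRI kidneys it was 5785 in replicate 1, 5042 in replicate 2, 4577 in replicate 3 and 4571 in replicate 18. The highest IRI kidney lay below the lowest sham kidney, and the IRI kidneys differed more among themselves. The group means were 7037 ± 300.4 in sham and 4994 ± 572 in IRI (SD, n = 4). The log2 change was -0.50 ± 0.09 (SE; adjusted p = 0.00293, limma).

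miR-26b-5p had a scaled signal of 2824 in sham replicate 1, 2474 in replicate 2, 2718 in replicate 3 and 2477 in replicate 6. Its values in IRI were 2049 in replicate 1, 1813 in replicate 2, 1706 in replicate 3 and 1722 in replicate 18. Again no IRI kidney reached the lowest sham kidney, and IRI replicate 1 was the highest of its group for both guides. Sham kidneys averaged 2623 ± 176 and IRI kidneys 1823 ± 158 (SD, n = 4). On the log2 scale this was -0.53 ± 0.08 (SE), with adjusted p = 0.00161 in limma. Values without overlap in this direction were found for 35.9% of the 379 tested miRNAs.

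**Figure D1:**
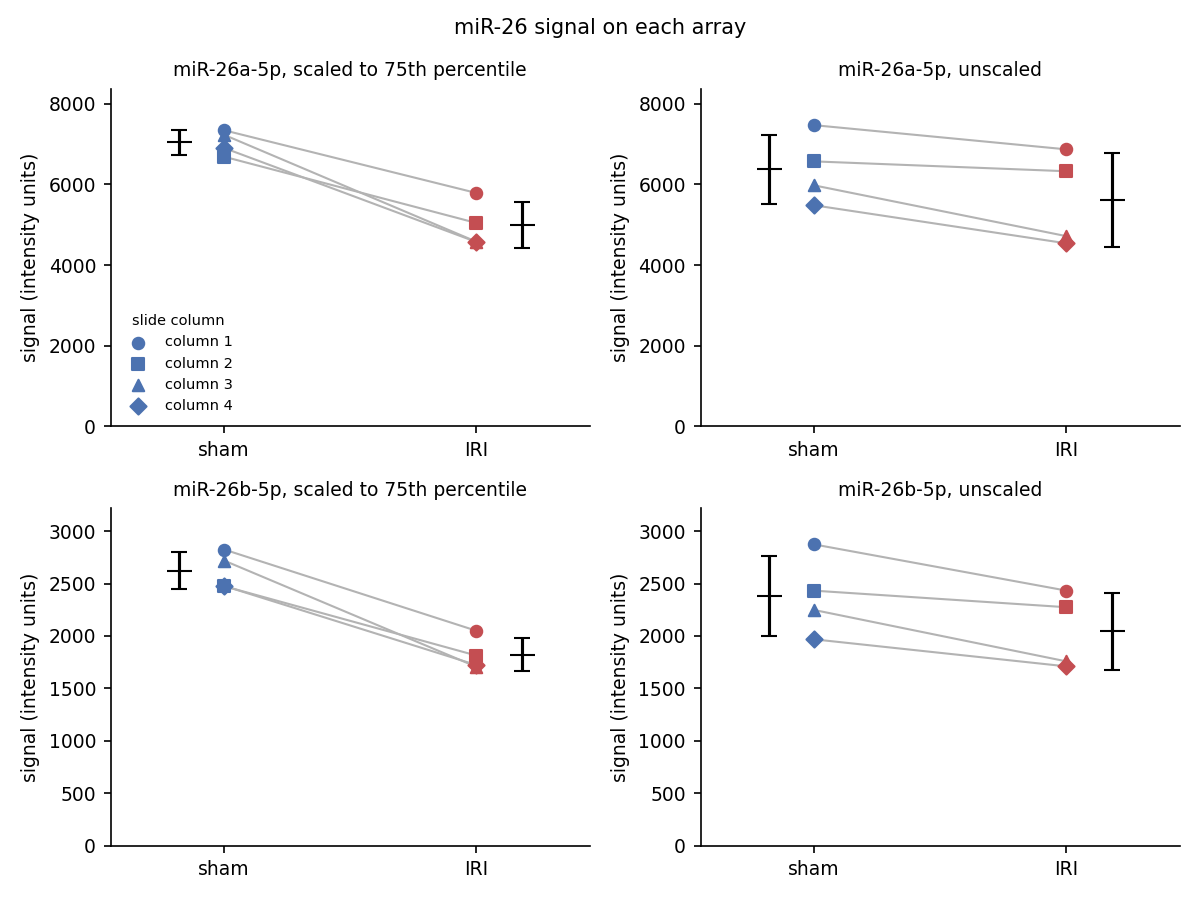
Signal (intensity units, linear axis from 0) of miR-26a-5p (top) and miR-26b-5p (bottom) on the 4 sham (blue) and 4 IRI arrays (red), scaled to the 75th percentile (left) and unscaled (right). Markers give the slide column, grey lines join the arrays of a column, and black bars are mean ± SD. Scaled values of the groups do not overlap, unscaled values overlap, and every line falls.

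The size of the fall rested on the scaling. Unscaled, miR-26a-5p had 6373 ± 854 in sham and 5611 ± 1160 in IRI, and miR-26b-5p had 2380 ± 380 in sham and 2043 ± 364 in IRI (SD, n = 4). The groups overlapped, and neither guide was called. The log2 changes were -0.20 (adjusted p = 0.432, limma) and -0.22 (adjusted p = 0.362, limma), where 0.264% of the 379 miRNAs were called lower. RNAs spiked into the samples gave a scale that does not rest on kidney miRNAs. With it the changes were -0.18 and -0.20, neither called (adjusted p = 0.466 and 0.386, limma), beside 0.528% called lower. With the total signal of the arrays set equal the changes were -0.17 and -0.19, again not called (adjusted p = 0.212 and 0.119, limma), beside 4.49% called lower. The median change of all tested miRNAs moved from -0.11 with the 75th percentile to 0.17 without scaling and 0.19 with the spike-ins. Set against that median, miR-26a-5p lay 0.39 below it with the percentile and 0.36 below it with each of the others, and miR-26b-5p 0.41 and 0.39 below it. These scalings move all miRNAs of an array alike, so this distance could hardly change between them.

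All arrays lay on 1 slide, with sham arrays in its first row and IRI arrays in its second, so slide row and group cannot be told apart. A sham and an IRI array shared each slide column (1 to 4), which allowed a comparison within columns. Unscaled miR-26a-5p was lower in IRI in each of the 4 columns, by 8.03% in column 1, 3.72% in column 2, 21.1% in column 3 and 17.2% in column 4. Unscaled miR-26b-5p was lower by 15.3%, 6.49%, 21.8% and 13.1% in the same columns. The exact sign-flip test within columns gave a two-sided p = 0.125 for each guide, and with 16 flips no smaller p is possible. Without scaling, IRI lay below sham in all 4 columns for 16.6% of the 379 tested miRNAs. With the column as a block in the unscaled fit, the adjusted p was 0.104 for miR-26a-5p and 0.0739 for miR-26b-5p (limma), beside 3.17% called lower.

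**Figure D2:**
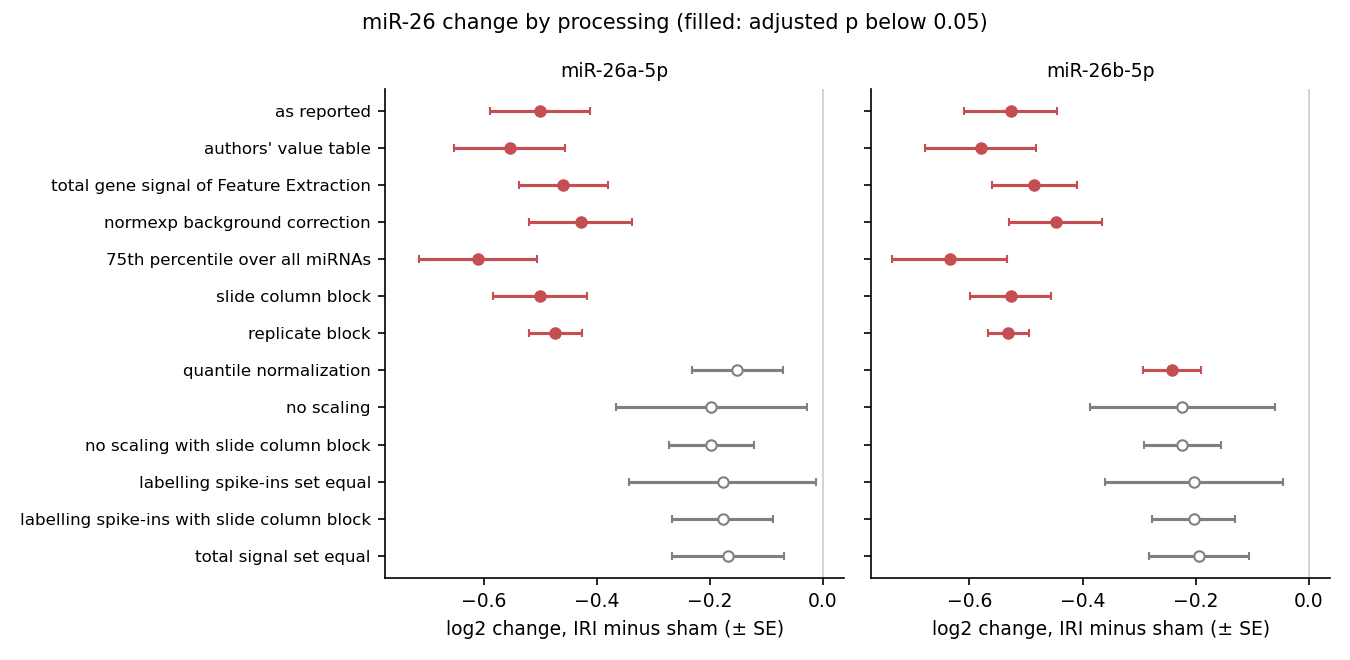
Log2 change, IRI minus sham (± SE), of miR-26a-5p (left) and miR-26b-5p (right) under 13 ways of processing, filled red where the adjusted p was below 0.05. Every estimate lies below 0, from -0.61 to -0.15 for miR-26a-5p and from -0.64 to -0.19 for miR-26b-5p. Filled points lie farther from 0 than open ones.

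Quantile normalization, which gives every array the same distribution, ended the call of miR-26a-5p only. miR-26a-5p then had a change of -0.15 and was not called (adjusted p = 0.165, limma). miR-26b-5p kept its call with a change of -0.24 (adjusted p = 0.00722, limma), beside 33.5% called lower. Against the median of all tested miRNAs, miR-26a-5p then lay only 0.06 and miR-26b-5p 0.15 lower on the log2 scale. The difference between the guides on this scale was 0.09 and did not pass the test (exact permutation p = 0.343, two-sided).

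Other measures moved with the groups. IRI arrays had 393 to 447 detected miRNAs and a 75th percentile of 445 to 562, against 327 to 379 and 356 to 456 on sham arrays. With the percentile scaling, 36.7% of the 379 tested miRNAs were called lower and 12.1% higher, the shares for the calls that follow. All 4 tubule miRNAs listed (miR-192-5p, miR-194-5p, miR-204-5p and miR-30a-5p) were detected on every array and called lower in IRI, their summed scaled signal being 13971 to 16412 in sham and 10072 to 11516 in IRI. All 3 red blood cell miRNAs were called higher, with sums of 77.3 to 910 in sham and 2940 to 4087 in IRI. Only miR-451a among them was detected on every array. miR-144-3p was detected on 2 sham and 4 IRI arrays, and miR-486a-5p on 0 sham and 4 IRI arrays. Both entered the fit only through the IRI group, so a call of higher says little for them. Of 3 leukocyte miRNAs 1 was called higher (miR-223-3p), with sums of 418 to 563 in sham and 625 to 904 in IRI. miR-142a-3p was not called, and miR-150-5p went the other way (-0.57, limma adjusted p = 0.0566). Both endothelial miRNAs, which are the 2 arms of miR-126a, were called lower, with sums of 4623 to 5333 and 3836 to 4321. Of 4 fibroblast and mural miRNAs 2 were lower, with sums of 1705 to 1877 and 1039 to 1605. Of the markers of muscle, brain and pancreas, miR-133a-3p, miR-124-3p, miR-216a-5p and miR-217-5p were detected on 0 arrays, while miR-1a-3p (muscle, called lower) and miR-9-5p (brain, not called) were detected on all 8. For liver, miR-122-5p was above the detection limit on a single IRI array (1 of 8). Without scaling, 0 of the 4 tubule miRNAs and 0 of the 2 endothelial miRNAs were called, where 0.264% of the 379 were called lower. All 3 red blood cell miRNAs were still called higher, where 53 of the 379 tested miRNAs were. Again miR-144-3p and miR-486a-5p had entered the fit only through the IRI group. The part of these in the miR-26 fall was not tested. In whole kidney, fewer cells that hold miR-26 and less miR-26 per cell cannot be told apart.

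Each of the 4 probes carried the fall. They were measured as means over 11 to 15 spots per array after outlier spots were left out, and the spots of a probe varied by 0.809% to 7.61% on an array (coefficient of variation, median 3.25%). All 4 were called lower, where 43.4% of 537 probes in the same fit were.

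The probe of 15 bases for miR-26a-5p fell from 2810 ± 114 to 1969 ± 246 in scaled signal (SD, n = 4), or by 0.52 ± 0.09 on the log2 scale (SE; limma adjusted p = 0.00191). The probe of 16 bases, which reaches 1 base further into the seed, gave -0.49 ± 0.08 (limma adjusted p = 0.00181). For miR-26b-5p the probe of 19 bases gave -0.51 ± 0.08 (limma adjusted p = 0.00139) and the probe of 20 bases -0.54 ± 0.08 (limma adjusted p = 0.000815). The changes of the 4 probes thus lay within 0.05 of each other on the log2 scale. Differences between probes were not tested. Without scaling none of the 4 was called, with changes of -0.23 to -0.18 (adjusted p = 0.357 to 0.481, limma).

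The ratio of the longer to the shorter probe stayed nearly constant over arrays. For miR-26a-5p its log2 was 0.56 to 0.63 in sham and 0.59 to 0.66 in IRI. For miR-26b-5p it was 0.62 to 0.68 in sham and 0.61 to 0.64 in IRI. The ranges of the groups overlapped for both guides. Between arrays, the scaled signal of the probes varied by 4.06% to 7.15% in sham and by 8.45% to 12.5% in IRI (coefficient of variation) against the median of 3.25% between spots of a probe.

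**Figure D3:**
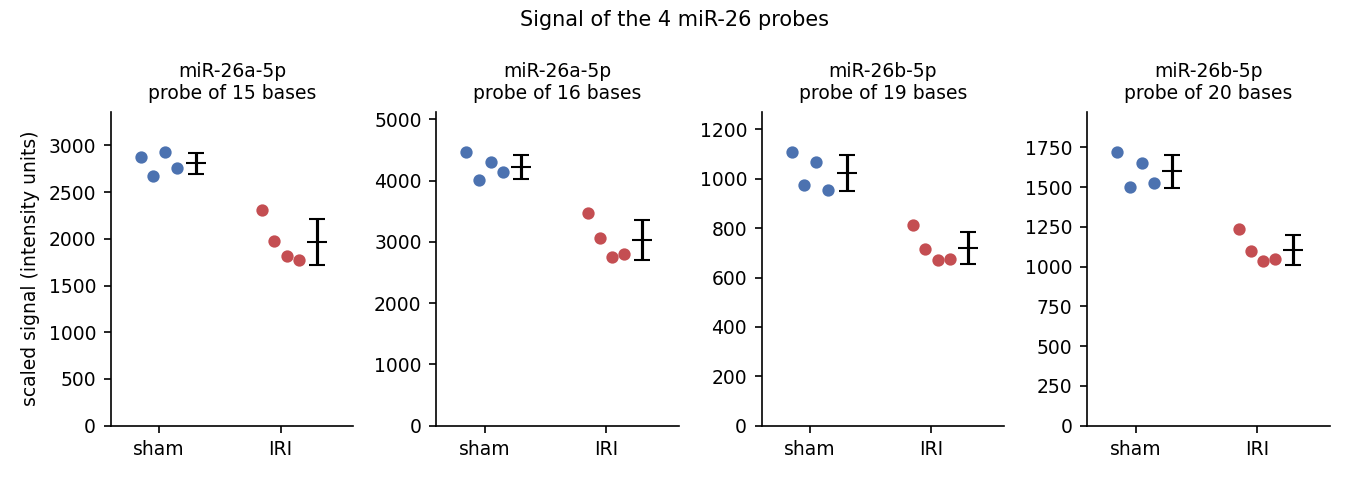
Scaled signal (intensity units, linear axes from 0) of the 4 miR-26 probes on the 4 sham (blue) and 4 IRI arrays (red), with mean ± SD in black. For each probe every IRI array lies below every sham array.

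No difference between the guides in how far they fell was detectable. The log2 difference between miR-26a-5p and miR-26b-5p, in which the scaling of an array cancels, was 1.38 to 1.48 in sham and 1.41 to 1.50 in IRI. The change of miR-26a-5p minus that of miR-26b-5p was 0.03 (95% interval -0.07 to 0.12 by inversion of the exact test; exact permutation p = 0.457, two-sided, 0.457 after Benjamini-Hochberg adjustment over the 7 pairs compared). The interval still allows a difference of up to 0.12 on the log2 scale.

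The comparison with 3 other abundant kidney miRNAs gives a yardstick for the size of the fall. They were let-7a-5p, a guide of the let-7 family that restrains growth genes, miR-30c-5p of the kidney-rich miR-30 family, and the tubule miRNA miR-192-5p. Their log2 changes were -0.46, -0.45 and -0.69 (SE 0.06, 0.08 and 0.08). The change of miR-26a-5p minus that of miR-192-5p was 0.19 (95% interval 0.00373 to 0.369), and that of miR-26b-5p was 0.16 (0.0109 to 0.304). The change of miR-26b-5p minus that of miR-30c-5p was -0.08 (-0.15 to -0.01). In these 3 pairs the per-array differences of the groups did not overlap, with exact permutation p = 0.0286, the smallest that 35 splits allow. After adjustment over 7 pairs the p was 0.0667 for each, so none passed. With only 3 pairs at the smallest p none could have passed, so the adjusted test cannot decide whether these changes differed. Against let-7a-5p the differences were -0.04 for miR-26a-5p (-0.17 to 0.07) and -0.06 for miR-26b-5p (-0.21 to 0.03), and miR-26a-5p against miR-30c-5p gave -0.05 (-0.14 to 0.07). These had adjusted exact permutation p of 0.457, 0.24 and 0.24.

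The opposite arms, the strands usually discarded when the guide is loaded, were not detected. miR-26a-1-3p, miR-26a-2-3p and miR-26b-3p were each detected on 0 of 8 arrays, so none was tested and no ratio of guide to opposite arm could be followed. Their sequences are given because, unlike the guides, they tell all 3 genes apart, with bases 2 to 8 in capitals.
miR-26a-1-3p: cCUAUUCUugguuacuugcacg
miR-26a-2-3p: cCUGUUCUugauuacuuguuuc
miR-26b-3p: cCUGUUCUccauuacuuggcuc
Their unscaled signals ran from -1.2 to 6.44 for miR-26a-1-3p, from 1.61 to 5.81 for miR-26a-2-3p and from 7.26 to 14.2 for miR-26b-3p. No probe of theirs was well above background on any array. Whether Mir26a-1 and Mir26a-2 contributed unequally to the miR-26a-5p fall could therefore not be told.

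Of 9 other miRNAs known to repress Ezh2, 3 (miR-101b-3p, miR-138-5p and miR-124-3p) were detected on 0 arrays and 6 were tested. With the percentile scaling 5 of the 6 were called lower, 0 higher and 1 was not called, where 36.7% of all 379 tested miRNAs were called lower. Their median log2 change was -0.44, against -0.11 over all 379. miR-101a-3p, the best known of these regulators, fell by 0.67 on the log2 scale, from a scaled signal of 1158 ± 100 in sham to 730 ± 72 in IRI (SD, n = 4; adjusted p = 0.00121, limma). miR-98-5p, let-7a-5p and let-7c-5p, all of the let-7 family, fell by 0.47, 0.46 and 0.43. Apart from miR-101a-3p, every member called lower was of this family, so the count of 5 does not stand for separate families. The member that was not called was miR-214-3p, at -0.34 ± 0.14 (SE; limma adjusted p = 0.074). Without scaling 0 of the 6 were called, with a median of -0.14 against 0.17 over all tested miRNAs. The 379 were not matched to these 6 in signal, and whether the fall goes with signal was not tested.

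The guides were also set beside guide arms that are, like them, made from introns of protein-coding genes. Of 28 listed, 27 were tested, 21 were called lower, 0 higher and 6 were not called, where 36.7% of all 379 tested miRNAs were called lower. Their median log2 change was -0.36, against -0.11 over all 379. The largest falls were those of miR-107-3p from a Pank gene (0.69), miR-324-5p (0.53), miR-30e-5p from Nfyc (0.53) and miR-128-3p (0.52), whose IRI mean of 19.4 was close to the floor of 17.3 set on scaled signals. miR-15b-5p from Smc4, at -0.11, had the smallest change of the 27 on this scale. Without scaling 0 of the 27 were called and their median was -0.05, against 0.17 over all tested miRNAs. The 379 were matched in signal neither to the 27 nor to the guides, so these values do not mark intronic origin. The place of the guides among the 379 tested miRNAs depended on the processing. With the 75th percentile, 12.4% had a lower change than miR-26a-5p and 8.97% a lower one than miR-26b-5p. With quantile normalization these shares were 44.9% and 36.1%, and with the normexp background correction 4.75% and 3.69%.

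**Figure D4:**
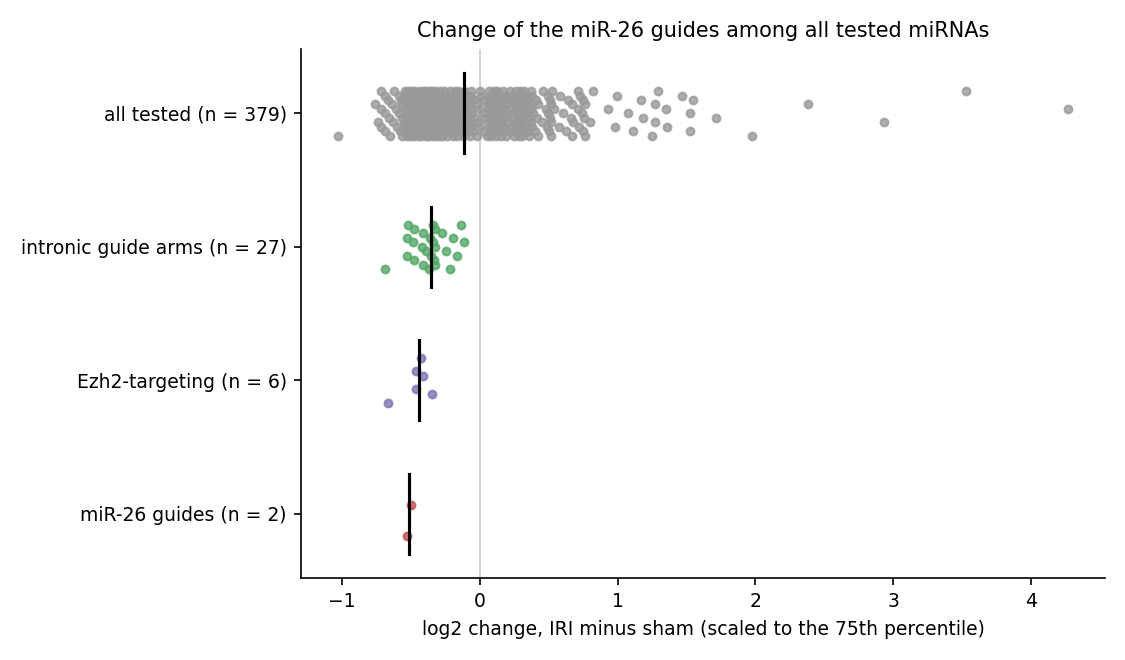
Log2 change, IRI minus sham, of each tested miRNA (points, with vertical jitter only to separate them) for all 379 tested miRNAs, 27 intronic guide arms, 6 miRNAs known to target Ezh2 and the 2 miR-26 guides. Black bars are medians. On this scale both guides lie in the lower part of the whole distribution, and every member of the 3 smaller groups lies below 0. The 379 are not matched in signal to the smaller groups.

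By Pearson correlation of log2 scaled signal over the 8 arrays, which share their scaling and the difference between groups, miR-26a-5p was most like miR-99a-5p (r = 0.994), miR-425-5p, miR-140-3p, miR-15a-5p and miR-16-5p (r = 0.992). miR-26b-5p came seventh of 316 miRNAs detected on all arrays (r = 0.991). miR-26b-5p was most like miR-101a-3p (r = 0.997), miR-15a-5p, let-7f-5p, miR-194-5p and miR-30e-5p (r = 0.994), with miR-26a-5p in place 9. After the group means were taken out, the closest to miR-26a-5p were miR-28c (r = 0.985), miR-99a-5p, miR-425-5p, let-7f-5p and miR-140-3p. The closest to miR-26b-5p were then let-7f-5p (r = 0.993), miR-340-5p, miR-874-3p, miR-15a-5p and miR-101a-3p. The guides correlated with each other at r = 0.939 in that measure. These values describe 8 arrays and carry no test.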

How the data were processed

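Kidney RNA from 30 mg of tissue was end-labelled with Cy3 (100 ng per sample) and hybridised to 1 single-colour Agilent miRNA array per sample, per the labels' protocols. The deposited scanner files hold spot intensity made with Agilent Feature Extraction 12.0.3.1, background-subtracted and not normalized between arrays, per the file headers. The authors' deposited value table gives each miRNA as a linear ratio whose scaling and centring are unknown, and served as an alternative only. Probe coordinates of the design (mm9) were not used here.

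Outlier spots (0 to 6 of 60 miR-26 spots per array) were left out, spots averaged per probe and probes summed per miRNA. Signals were divided by the 75th percentile of their array, raised to a floor of 17.3 and taken to log2. A miRNA entered the fit (limma 3.58.1, R 4.3.3) if all 4 arrays of either group detected it, which left 379. Tests were two-sided with Benjamini-Hochberg adjustment over all tested, at a threshold of 0.05. Probes were fitted the same way, over those well above background on all arrays of a group. Exact tests used scipy 1.17.1. The fit was tested on simulated data. Having 4 arrays a group limits the precision. No saturated spots occurred (0).

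Members and lists were chosen with earlier results of these data known. Named miRNAs are the guides, their opposite arms, 3 comparators, the 4 largest changes per list and the 5 most like each guide. miR-214-3p and miR-15b-5p were named after their values were seen. Alternatives covered scaling, background, value per miRNA, filter, floor, variance model and blocks, and each array was left out in turn. Scaling combined with a slide column block was added after seeing the data.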

Additional observations from a re-analysis of the deposited data

Results flagged for a closer look

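The signal of 1 spike-in RNA, used in the spike-in scaling of miR-26, had 1 IRI array apart from the others. IRI replicate 18 had 1912, and the other IRI arrays had 1787 to 1795, so the gap to the nearest array was 0.933 of the range of the group. No scaled, unscaled or spike-in-scaled miR-26 value and no miR-26 probe stood apart from its group by this measure.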

How the results depend on the processing

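Both guides had a negative change in all 26 alternatives. miR-26a-5p was still called in 20 of them (-0.61 to -0.43) and miR-26b-5p in 21 (-0.64 to -0.24). Calls ended without scaling (-0.20 and -0.22), with total signal set equal (-0.17 and -0.19), with the spike-ins (-0.18 and -0.20) and, for miR-26a-5p, with quantile normalization (-0.15). The slide column block ended neither call with the percentile scaling, and without scaling (-0.20 and -0.22) or with the spike-ins (-0.18 and -0.20) it restored neither. Counts of miRNAs higher and lower, 46 and 139 as reported, were 53 and 1 without scaling, 81 and 12 without scaling in the block, 101 and 17 with total signal, 72 and 2 with the spike-ins, 98 and 12 with the spike-ins in the block, 18 and 159 with normexp, and 21 and 90 with no filter. Leaving out 1 array gave -0.57 to -0.46 for miR-26a-5p, -0.58 to -0.49 for miR-26b-5p, 36 to 64 higher and 114 to 144 lower, and 0.01 to 0.04 for the difference between the guides, which was not called in any of 15 alternatives. Deviations of same-numbered samples, which also shared a slide column, had r = -0.09, -0.14 and 0.28 for numbers 1, 2 and 3. In the remaining column, sham replicate 6 and IRI replicate 18 had r = 0.59. The replicate block on the 6 same-numbered arrays is thus also a column block and no separate check. With it the changes were -0.47 and -0.53 (adjusted p = 0.0147 and 0.0143, limma), with 35 higher and 127 lower. Opposite arms near background cannot be followed at this signal. The cause of the lost calls was not tested.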

Other observations

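In the authors' deposited table the ratios of miR-26a-5p were 1.27, 1.26, 1.2 and 1.1 for sham replicates 1, 2, 3 and 6, and 0.908, 0.83, 0.851 and 0.707 for IRI replicates 1, 2, 3 and 18. In the authors' deposited table the 3 opposite arms of miR-26 share the same 8 ratios, 0.859 to 1.3 in sham and 0.646 to 1.16 in IRI, with the blank control and with 1403 mouse miRNA entries in all. On the scanner arrays these strands were detected on 0 of 8 arrays.

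Unscaled signal of both guides was highest in slide column 1 and lowest in column 4, in either group. For miR-26a-5p it was 7467 and 5481 in sham columns 1 and 4, and 6867 and 4538 in the same IRI columns. On the sham arrays, the 75th percentile (456, 441, 371 and 356 in columns 1 to 4) and one spike-in RNA (511, 500.2, 494 and 437) had the same order, while the other spike-in RNA (1739, 1760, 1828 and 1731) did not. On the IRI arrays the 75th percentile was 532, 562, 462 and 445 in columns 1 to 4, and the spike-in RNAs were 459, 466, 434 and 470 and 1790, 1795, 1787 and 1912.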
